A study of Mus musculus with 8 samples.

Results

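Collagens and other proteins of the extracellular matrix were followed in tumour macrophages of the mouse pancreas that had been isolated by cell sorting. The genes were chosen by name from the array: every collagen chain (a name of the form Col, number, a, number) and 19 further matrix genes, namely the cross-linking enzymes Lox and Loxl1 to Loxl4, the processing factors Pcolce and Pcolce2, the proteoglycans Dcn, Lum and Bgn, and Fn1, Sparc, Postn, Tnc, Thbs1, Thbs2, Spp1, Fbln1 and Eln. The rule gave 63 genes of 36994 names on the array, 44 of them collagen chains. A gene counted as measured when a probe was well above background, as the scanner software calls it, on at least 4 of the 8 arrays. By this filter 57 of the 63 genes were measured, 39 collagen chains and 18 others, among 27963 genes tested in all.

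The series holds 4 MHCII-high and 4 MHCII-low samples, named for their MHC class II, the molecule with which antigen is shown to helper T cells, and each sample was run on 1 array. Per the labels, all 8 came from implanted tumours of female FvBn mice aged 8 to 10 weeks, with the genotype not provided. The design text of the series names wild-type, KPC and FLT3-CRE/LSL-YFP mice, with normal pancreas or PDAC, without linking any of these to the 8 samples. Neither the tumour cells implanted nor any gate besides MHCII was given in the sources used here. The numbers 20435, 20436, 20439 and 20442 occur once in each group, with no statement of what they mark, and every list of 4 array values here follows that order. Whether the samples of a group were taken from different animals is not stated, so the p-values speak of the spread among these samples alone, which may be technical. Of 9 macrophage marker genes, all 9 were well above background on all 8 arrays. Their levels were not equal in the groups, with 8 of the 9 lower in MHCII-high. The median log2 change, MHCII-high minus MHCII-low, was -0.42. Adgre1 alone passed the threshold of the limma comparison given below, with the higher level in MHCII-low, beside 2.3% of all genes tested. It did so whichever single array was omitted (adjusted p up to 0.0218). Of 11 dendritic cell markers, 9 passed with the higher level in MHCII-high, beside 2.63% of all genes tested, and their median change was 2.70. The marker lists were chosen with earlier results of these data known. Whether the groups held the same share of macrophages or of dendritic cells was not tested.

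Collagens are trimers of chains built of Gly-X-Y repeats, in which the regular glycine lets the chains wind into a triple helix. Fibrillar collagens form the ropes of connective tissue, network collagens line basement membranes, and lysyl oxidases cross-link the product outside the cell. Fibroblasts, and in the pancreas the stellate cells, are the main source of fibrillar collagen in tumour stroma, while macrophages are known for degrading matrix and for making adhesive and matricellular proteins such as fibronectin, osteopontin and thrombospondin. In a sorted bulk sample, fewer cells of a type and less RNA per cell cannot be told apart.

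The glycine repeat is visible in some of the probes themselves. Of 91 collagen probes, 5 kept the glycine codons of the Gly-X-Y repeat in 1 reading frame with at most 1 step missing, as did 0 of 37 probes of the other matrix genes. The probes used for Col5a3, Col22a1 and Col6a3 are shown with their glycine codons in capitals, 5′ to 3′ on the transcript strand, because they show the signature that defines the family, and the Col14a1 probe because it holds 7 glycine codons with 1 shortened step between them. Coordinates of probes are those of the array files, on mm9, and exons and UTRs of that build were not assigned here.
Col5a3 (chr9:20590066-20590795, minus strand): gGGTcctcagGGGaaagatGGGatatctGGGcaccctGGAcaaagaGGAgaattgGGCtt
Col22a1 (chr15:71767749-71768433, minus strand): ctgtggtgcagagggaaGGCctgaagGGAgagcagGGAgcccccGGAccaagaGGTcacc
Col6a3 (chr1:92689602-92690594, minus strand): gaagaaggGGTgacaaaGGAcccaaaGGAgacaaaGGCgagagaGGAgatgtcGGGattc
Col14a1 (chr15:55347733-55347792, plus strand): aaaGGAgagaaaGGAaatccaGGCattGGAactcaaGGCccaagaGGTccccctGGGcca
The coordinates of the first 3 probes span 730, 685 and 993 bases, far beyond the 60 bases of a probe, so each crosses at least 1 intron of its gene.

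A pair of arrays was often the lowest in these genes. The arrays numbered 20435 were the lowest of their group for 32 of the 57 genes in MHCII-high (56.1%, against 23.1% of all genes tested) and for 33 in MHCII-low (57.9%, against 17.5%). In both groups at once this held for 25 of the 57 (43.9%) and for 5.67% of all genes. The pattern was not limited to the 57 genes: it held in both groups for 4 of 13 laminins and other basement membrane proteins, 6 of 23 other matrix glycoproteins and 6 of 11 dendritic cell markers, among them Flt3, Ccr7 and Zbtb46. The results are therefore also given without these arrays, an alternative chosen after the data were seen.

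The comparison of MHCII-high with MHCII-low asks which matrix transcripts differ between these sorted samples. Only 3 of the 57 measured genes passed an adjusted p of 0.05 in limma. The membrane collagen Col17a1 was higher in MHCII-high, and the matricellular protein Thbs1 and the procollagen processing factor Pcolce2 were higher in MHCII-low. Over all genes tested 4.93% passed, 2.63% with the higher level in MHCII-high and 2.3% with it in MHCII-low, so the share among matrix genes was near the background. All fold changes are MHCII-high minus MHCII-low on the log2 scale. Without both arrays numbered 20435, 0 of the 57 passed in limma, beside 622 of the 27963 genes tested. That fit has fewer arrays per group, and the full fit called 1379 of all genes. Whether the matrix genes lost calls more than others was not tested.

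Most of the fitted changes lay below 0 all the same. The change was below 0 for 44 of the 57 (77.2%, against 51.1% of all genes tested). Under the other scalings this held for 44 to 47 (against 50.9% to 57.7%). With the slide row as a block it held for 42 (against 52.9%), and with arrays left out for 40 to 46 (against 48.9% to 54.3%). In the main fit the change was -1 or below for 14 (24.6%, against 4.11%) and 1 or above for 0 (against 5.09%). The median was -0.38 over the 57 and -0.25 over the 39 collagen chains, beside -0.01 over all genes. These sizes moved with single arrays. Without the MHCII-high array 20435 the median of the 57 was -0.20 and 4 genes were at -1 or below (against 4.55% of all genes). Without both arrays of that number 8 were (against 4.75%). Without the MHCII-high array 20439 or the MHCII-low array 20435 22 were (against 4.37% and 4.33%). With normexp background correction, which compresses dim values, 4 of the 57 were at -1 or below (against 1.70%). Of the 46 genes measured on all 8 arrays 8 were (against 2.63% of all such genes). An unadjusted p under 0.05 was reached by 7 of the 57, Col11a2, Col14a1, Col17a1, Col18a1, Lum, Pcolce2 and Thbs1, a share of 12.3% against 19.7% of all genes tested.

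**Figure D1:**
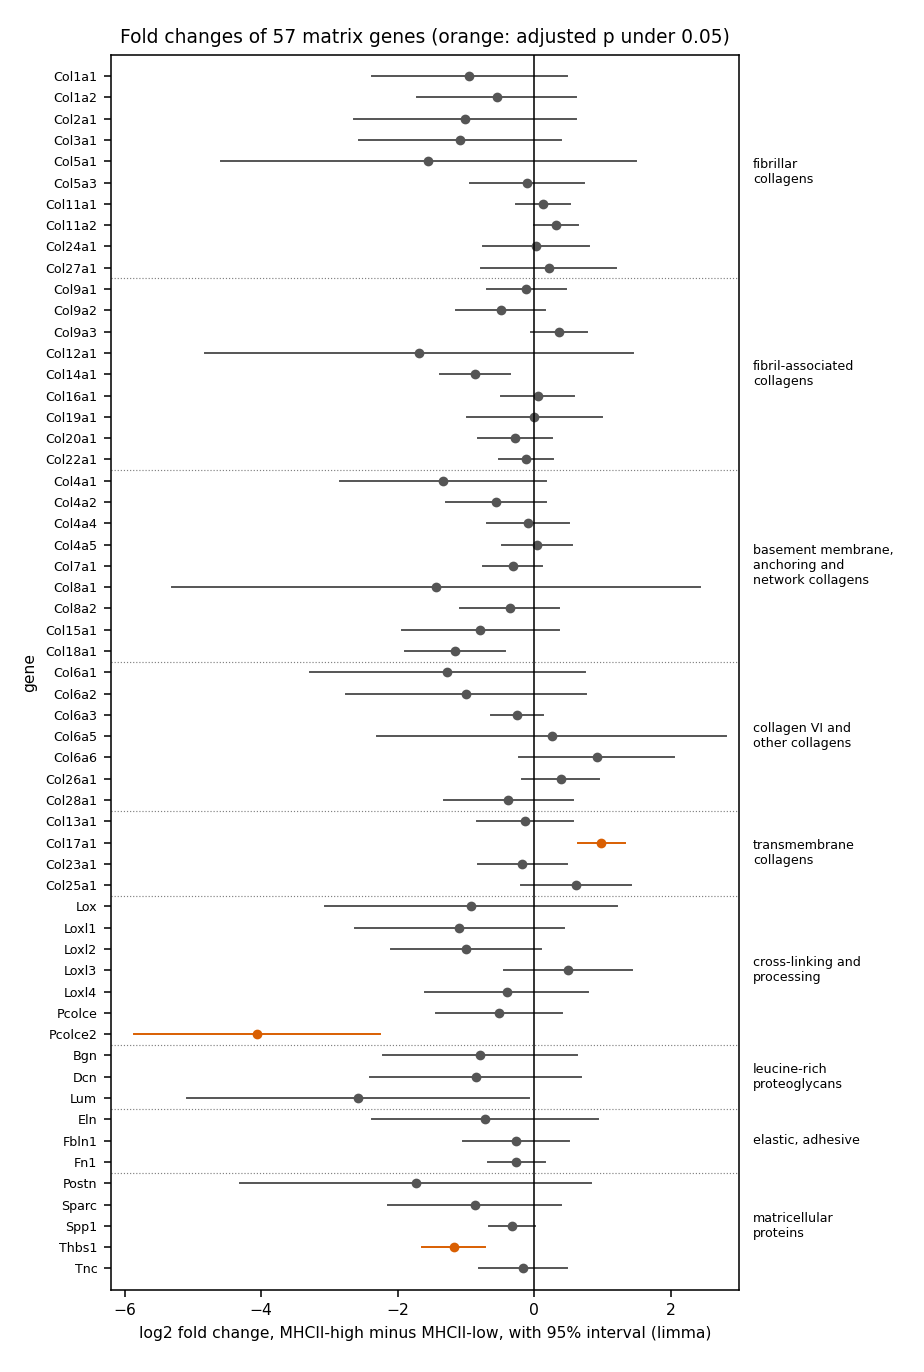
Log2 fold change (MHCII-high minus MHCII-low, x axis) of the 57 measured matrix genes, grouped by role, with 95% intervals from limma (n = 4 arrays per group). The 3 genes past an adjusted p of 0.05 are orange, Col17a1 to the right of 0 and Thbs1 and Pcolce2 to the left, and the widest intervals belong to genes whose arrays differ most within a group.

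Thbs1 encodes thrombospondin 1, a matricellular protein that binds cell surface receptors and can release TGF-beta from its latent form. Its log2 signals, relative to the 75th percentile of the array, were 4.60, 5.06, 4.28 and 4.20 in MHCII-high and 5.73, 5.78, 5.65 and 5.71 in MHCII-low. The 4 MHCII-low arrays lay within a narrow band and all above the highest MHCII-high array. Thbs1 was 2.27-fold higher in MHCII-low (95% interval 1.65 to 3.12, log2 change -1.18 ± 0.20 SE, limma adjusted p = 0.0162). A second probe, farther along the transcript, gave -1.44. The first 30 bases of both probes are shown, since the result rests on 2 separate stretches of the gene.
Thbs1, probe used (chr2:117950962-117951021, plus strand): cgaatgagaatgcatcttccaagaccatga
Thbs1, second probe (chr2:117952585-117952644, plus strand): gcctgtagagttagtatttctggtttttat
The call ended without the MHCII-high array 20439 (adjusted p = 0.0561), without both arrays numbered 20435 (0.0874) and when the slide row was added as a block (0.0718), where the change was -1.0 (within the rows -0.66 and -1.35). A row holds 3 arrays of one MHCII group but a single one of the other. Platelets also carry thrombospondin 1. Of 12 platelet and megakaryocyte markers 1 passed, Pf4 at -1.38, beside 4.93% of all genes tested. The summed level of the 12 was 13.3 to 15.8 times the 75th percentile in MHCII-high and 26.0 to 42.2 times in MHCII-low. Pf4 alone made up 58.4% to 70.0% of that sum in MHCII-high and 76.1% to 82.4% in MHCII-low. Without it the sums were 4.52 to 6.56 and 5.88 to 7.43, and the median change of the 12 was -0.02. The part of these transcripts in the Thbs1 result was not tested.

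Pcolce2 encodes procollagen C-endopeptidase enhancer 2, which speeds the removal of the carboxy-terminal propeptide of fibrillar procollagens. Its log2 signals were -2.31, -0.84, -3.55 and -4.87 in MHCII-high and 0.25, 1.47, 1.09 and 1.88 in MHCII-low. The groups did not overlap, the MHCII-high arrays spread over a far wider range, and 3 of the 4 reached the level well above background. Pcolce2 was 16.7-fold higher in MHCII-low (4.81 to 58.2, log2 change -4.06 ± 0.79 SE, limma adjusted p = 0.0255). With normexp background correction the change was -2.95.
Pcolce2, first 30 bases of its only measured probe (chr9:95595436-95595495, plus strand): tcatgccaaacagctttgtcaaaatgttca
In the fits without the MHCII-high array 20439 or the MHCII-low array 20436, 20439 or 20442 the adjusted p was 0.0629 to 0.0780, without both arrays numbered 20435 it was 0.0706, and with a block for the slide row 0.107. Within the rows the change was -1.77 and -5.46. Genes known from serous-cavity macrophages moved the same way, with 11 of 12 higher in MHCII-low, beside 2.3% of all genes tested. Their summed level was 22.8 to 51.9 in MHCII-high and 121 to 159 in MHCII-low. Of the 11, Gata6 and Saa3 lost the call in 6 of the 8 fits that omit an array, and Gata6, Saa3, Fcna and Prg4 lost it with the row block (adjusted p 0.0547 to 0.165). The list was chosen with earlier results of these data known, so its count is no independent support. The part of these genes in the Pcolce2 result was not tested. Its partner Pcolce, the better known enhancer of the same cleavage, was at -0.52 (-1.44 to 0.40, adjusted p = 0.524), with values of -2.31 to -0.67 in MHCII-high and -1.73 to -0.20 in MHCII-low.

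Col17a1 encodes collagen XVII, a transmembrane collagen of the hemidesmosomes that anchor epithelial cells. Its log2 signals were -1.14, -1.23, -1.39 and -1.07 in MHCII-high and -2.42, -2.06, -2.25 and -2.03 in MHCII-low. Both groups were tight and did not overlap. Col17a1 was 1.97-fold higher in MHCII-high (1.56 to 2.50, log2 change 0.98 ± 0.15 SE, limma adjusted p = 0.0109). This rests on 1 probe, because the second was well above background on 0 arrays, and both are shown by their first 30 bases.
Col17a1, probe used (chr19:47721454-47721513, minus strand): atatgagacttgacctctctgctacataga
Col17a1, second probe (chr19:47720894-47720953, minus strand): ggcacagttggtttttatttaagcactttc
The call held whichever single array was omitted (adjusted p 0.0238 to 0.0362) and ended without both arrays numbered 20435 (0.0728) and with a block for the slide row (0.0563), where the change was 0.92 (within the rows 1.01 and 0.83). Beside it, 1 of 11 epithelial and tumour cell markers was higher in MHCII-high, Cdh1 at 1.72, a call lost in 7 of the 8 fits that omit an array, with a summed level of the list of 5.97 to 27.5 in MHCII-high and 9.05 to 18.1 in MHCII-low. Dendritic cell markers were higher in MHCII-high for 9 of 11, with a summed level of 28.4 to 40.9 against 8.22 to 10.7. Of all genes tested, 2.63% were higher in MHCII-high. Both lists were chosen with earlier results of these data known, so their counts are no independent support. The part of either list in the Col17a1 result was not tested. The other transmembrane collagens Col13a1, Col23a1 and Col25a1 were at -0.14, -0.18 and 0.61, with adjusted p of 0.848, 0.778 and 0.384.

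**Figure D2:**
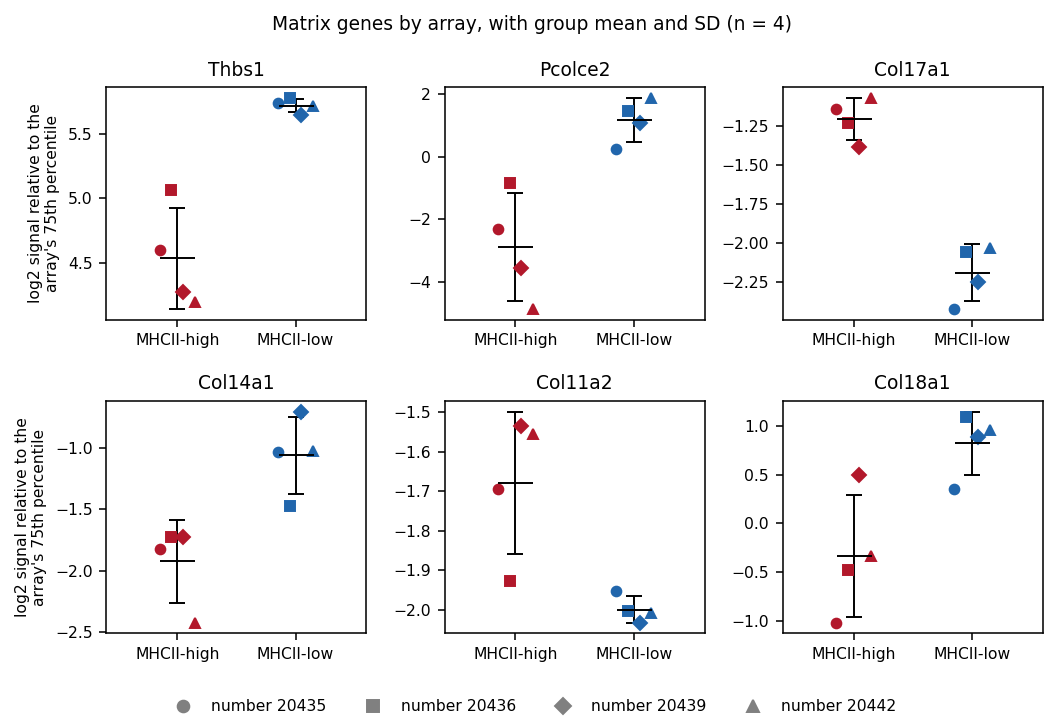
Log2 signal relative to the array's 75th percentile (y axis) of 6 matrix genes on each of the 4 MHCII-high (red) and 4 MHCII-low (blue) arrays, with the group mean and SD in black and the label number by symbol. Thbs1, Pcolce2, Col17a1, Col14a1 and Col11a2 show groups that do not overlap, while for Col18a1 the highest MHCII-high array (0.50) lies above the lowest MHCII-low array (0.36).

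The groups did not overlap for 5 of the 57 genes, beside 14.4% of all genes tested, and for 3 of them MHCII-low was the upper group, beside 7.14%. Of the 5, 2 missed the threshold. One was Col14a1, a fibril-associated collagen that regulates fibril diameter, with its glycine-rich probe shown above. Its log2 signals were -1.83, -1.72, -1.72 and -2.42 in MHCII-high and -1.04, -1.47, -0.71 and -1.03 in MHCII-low. The change was -0.86 (-1.38 to -0.35, limma adjusted p = 0.0694), and the adjusted p was 0.0458 when a probe had to be well above background on all 8 arrays, a filter that left fewer genes to adjust for. The other was Col11a2, a minor chain of cartilage-type fibrils, at -1.70, -1.93, -1.54 and -1.56 in MHCII-high and -1.95, -2.0, -2.03 and -2.01 in MHCII-low. Its change was 0.32 (0.0 to 0.64, adjusted p = 0.251), but a second probe with a full glycine repeat gave -0.60 and was well above background on 4 arrays, and the mean of both probes was -0.14.

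Fibrillar collagens showed no call in either direction among 10 measured chains, with changes from -1.55 to 0.32 and a median of -0.33. Col1a1 and Col1a2, the chains of type I collagen, and Col3a1, the type III chain, are the bulk collagens of stroma. Col3a1 had log2 signals of 1.09, 3.75, 4.26 and 3.31 in MHCII-high and 3.30, 4.55, 4.40 and 4.50 in MHCII-low. The MHCII-high array 20435 lay far below the 7 others, and the MHCII-low array 20435 was the lowest of its group. The change of -1.08 was within that spread (-2.56 to 0.39, adjusted p = 0.405). Col1a1 stood at 1.92, 3.95, 4.85 and 3.50 in MHCII-high and 3.40, 4.46, 5.25 and 4.90 in MHCII-low. Col1a2 stood at 1.89, 3.90, 4.23 and 3.57 and 3.19, 3.87, 4.35 and 4.39. The order of arrays within MHCII-high was the same for all 3 genes, with 20435 lowest, then 20442, 20436 and 20439. Changes were -0.95 for Col1a1 (-2.38 to 0.48, adjusted p = 0.449) and -0.55 for Col1a2 (-1.72 to 0.61, adjusted p = 0.596). With arrays left out the change ran from -1.47 to -0.41 for Col3a1, from -1.38 to -0.40 for Col1a1 and from -0.83 to -0.05 for Col1a2, in each case nearest 0 without the MHCII-high array 20435.

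Col2a1, the cartilage collagen, followed the same arrays, with -1.33, 1.64, 2.16 and 0.66 in MHCII-high and 0.89, 2.26, 2.19 and 1.85 in MHCII-low (change -1.01, -2.63 to 0.60, adjusted p = 0.474). Col5a1, which nucleates type I fibrils, had -7.12, -1.70, -0.25 and -3.16 and -3.0, -1.70, -0.57 and -0.75 (change -1.55, -4.59 to 1.49, adjusted p = 0.568). The value of -7.12 is the dim end of the scale, where the scanner software sets surrogate values, and Col5a1 was not well above background on every array. Against these, Col11a1, Col5a3, Col24a1 and Col27a1 were at 0.13, -0.11, 0.03 and 0.21. Among the 9 fibril-associated chains 0 passed, and the median change was -0.13. Col12a1, which links fibrils to other matrix in tendon and stroma, spread most, with -6.88, -1.49, -0.06 and -3.34 in MHCII-high and -2.85, -1.52, 0.50 and -1.15 in MHCII-low (change -1.69, -4.82 to 1.44, adjusted p = 0.544). A second Col12a1 probe gave 0.10. Apart from Col14a1, the remaining chains of this class lay between -0.49 for Col9a2 and 0.36 for Col9a3.

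Promoter windows of Col1a2 and Col3a1 are printed because these genes followed the same arrays. They are the 250 bases before the start of each gene, from RefSeq on GRCm38.p6, 5′ to 3′ on the gene's strand, with capitals for any match, on either strand, of the TATA element TATAAA, of the box CCAAT, of the GC box GGGCGG or of the element TGANTCA. Such windows were found for 45 of the 63 genes.
Col1a2 (chr6:4505368-4505617, plus strand): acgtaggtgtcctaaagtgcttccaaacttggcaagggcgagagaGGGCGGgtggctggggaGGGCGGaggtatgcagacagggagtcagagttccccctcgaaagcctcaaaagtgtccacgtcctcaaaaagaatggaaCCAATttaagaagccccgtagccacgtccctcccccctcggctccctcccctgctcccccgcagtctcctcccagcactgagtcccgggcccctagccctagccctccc
Col3a1 (chr1:45311288-45311537, plus strand): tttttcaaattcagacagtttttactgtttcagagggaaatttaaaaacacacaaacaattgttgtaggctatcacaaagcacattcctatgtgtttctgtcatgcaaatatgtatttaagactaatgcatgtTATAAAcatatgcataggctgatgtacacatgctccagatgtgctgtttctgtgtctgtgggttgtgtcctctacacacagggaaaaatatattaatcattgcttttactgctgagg
The Col1a2 window held 1 CCAAT and 2 GGGCGG matches and the Col3a1 window 1 TATAAA match and none of these, so the pair had no searched motif in common. Over the 45 windows GGGCGG was found in 26 (57.8%, against 32.9% of 27025 windows of the table), CCAAT in 14 (31.1%, against 34.5%), TATAAA in 8 (17.8%, against 13.0%) and TGANTCA in 1 (2.22%, against 6.87%). A match is a string of letters and not a site shown to be bound.

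Basement membrane, anchoring and network collagens had 0 of 9 measured chains past the threshold and a median change of -0.56, with 8 of the 9 below 0. Col18a1, whose carboxy-terminal fragment is endostatin, came nearest. Its log2 signals were -1.02, -0.48, 0.50 and -0.34 in MHCII-high and 0.36, 1.1, 0.89 and 0.96 in MHCII-low, so 3 MHCII-high arrays lay below all MHCII-low arrays. The change was -1.16 (-1.89 to -0.44, limma adjusted p = 0.0805), and without the MHCII-high array 20439 it was -1.44 and passed (adjusted p = 0.0387). Col4a1, with Col4a2 the main chain of basement membranes, had -1.69, 0.60, 0.66 and -1.63 in MHCII-high and -0.30, 0.85, 1.23 and 1.51 in MHCII-low (change -1.34, -2.84 to 0.17, adjusted p = 0.310). The MHCII-high arrays fell into a low pair, 20435 and 20442, and a high pair, 20436 and 20439. For Col4a2 the arrays read -0.70, -0.57, 0.24 and -1.23 and -0.43, 0.25, 0.37 and -0.20 (change -0.56, -1.30 to 0.18, adjusted p = 0.385).

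Col4a1 and Col4a2 lie side by side on opposite strands and are read away from each other. Their windows of 300 bases around the starts share 78 bases on opposite strands. The starts overlap in this annotation, so the 250 bases before each start lie beyond the start of the other gene, and the printed windows share no base. They are shown with the same motifs in capitals as the sequence on both sides of the starts of this pair.
Col4a1 (chr8:11312827-11313076, minus strand): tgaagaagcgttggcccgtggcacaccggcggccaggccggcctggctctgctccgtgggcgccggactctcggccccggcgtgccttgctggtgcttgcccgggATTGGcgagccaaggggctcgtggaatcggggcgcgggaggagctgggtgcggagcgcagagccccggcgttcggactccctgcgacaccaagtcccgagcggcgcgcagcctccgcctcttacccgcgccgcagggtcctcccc
Col4a2 (chr8:11312555-11312804, plus strand): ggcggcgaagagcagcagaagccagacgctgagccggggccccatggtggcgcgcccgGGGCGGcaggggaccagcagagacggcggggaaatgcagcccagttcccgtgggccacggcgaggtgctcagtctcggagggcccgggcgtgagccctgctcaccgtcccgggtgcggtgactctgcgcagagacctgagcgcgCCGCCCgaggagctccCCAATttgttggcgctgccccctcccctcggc
The windows held a CCAAT match each, which reads as its reverse complement in the Col4a1 window, and GGGCGG was found 2 times in the Col4a2 window. Col8a1, a network collagen of vessel walls, had -6.88, -1.67, 0.14 and -6.85 in MHCII-high and -4.41, -2.80, -0.05 and -2.26 in MHCII-low (change -1.44, -5.31 to 2.43, adjusted p = 0.689), a span that covers both dim and bright arrays in each group. Col15a1, a basement membrane relative of collagen XVIII, was at -0.79 (-1.94 to 0.36). Col7a1, the anchoring fibril of skin, was at -0.32 (-0.75 to 0.11), Col8a2 at -0.36, Col4a4 at -0.09 and Col4a5 at 0.04.

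Collagen VI forms beaded filaments near cell surfaces. Col6a1 had log2 signals of -3.07, -0.06, 1.34 and -1.99 in MHCII-high and -0.50, 0.20, 1.13 and 0.48 in MHCII-low (change -1.27, -3.28 to 0.74, adjusted p = 0.470), and Col6a2 ran from -2.11 to 1.48 in MHCII-high and 0.16 to 1.67 in MHCII-low (change -1.0, adjusted p = 0.522). The brightest Col6a3 probe was far steadier, at -1.38 to -0.99 in MHCII-high and -1.10 to -0.67 in MHCII-low, with a change of -0.25 (-0.64 to 0.13). By these probes the chains that assemble into 1 molecule had unlike profiles. Another, dimmer Col6a3 probe gave -1.94 and passed the background on 2 MHCII-high and 4 MHCII-low arrays. It read -7.22, -4.67, -3.23 and -7.21 in MHCII-high and -4.79, -4.27, -2.51 and -2.98 in MHCII-low. As for Col6a1, its lowest array was 20435 and its highest 20439 in both groups. Which Col6a3 probe reads the chain was not tested. Col6a5, Col6a6, Col26a1 and Col28a1 were at 0.25, 0.91, 0.39 and -0.38, and 0 of the 7 genes of this class passed.

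Among 7 cross-linking and processing genes, Pcolce2 alone passed. Loxl1, an oxidase tied to elastic fibres, had -2.33, -0.04, 0.61 and -0.67 in MHCII-high and -0.86, 0.73, 1.33 and 0.76 in MHCII-low (change -1.10, -2.63 to 0.44, adjusted p = 0.416). Loxl2, which cross-links collagen IV, had -2.46, -1.32, -0.70 and -2.46 and -1.74, -0.61, -0.33 and -0.25 (change -1.0, -2.10 to 0.10, adjusted p = 0.298), but its second probe gave 0.00. For Loxl1 and Loxl2 the MHCII-low array 20435 lay within the MHCII-high range, and the other MHCII-low arrays lay above it. Lox, the founding member of the family, was at -0.92 (-3.06 to 1.22), Loxl4 at -0.41 and Loxl3 at 0.49, the 1 gene of this class above 0.

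The leucine-rich proteoglycans Dcn, Lum and Bgn bind collagen fibrils and set their spacing, and 0 of 3 passed. Lum had the second lowest change of all 57, with -6.83, -3.10, -2.13 and -6.82 in MHCII-high and -3.21, -2.34, -1.37 and -1.63 in MHCII-low. Only 2 of the 4 MHCII-high arrays had it well above background, and the other two, 20435 and 20442, were at the dim end. The change was -2.58 (-5.09 to -0.08, adjusted p = 0.239) and -0.81 with normexp. Dcn ran from -0.52 to 2.81 in MHCII-high and 1.81 to 3.06 in MHCII-low (change -0.86, -2.40 to 0.68, adjusted p = 0.530) and Bgn from -0.52 to 2.11 in MHCII-high and 0.26 to 2.32 in MHCII-low (change -0.79, -2.21 to 0.62, adjusted p = 0.526). A second, dimmer Bgn probe gave -0.03.

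The matricellular proteins divided by how steady they were. Spp1, osteopontin, a secreted phosphoprotein that tumour macrophages are known to make, had 3.56, 3.32, 3.43 and 3.20 in MHCII-high and 3.78, 3.64, 3.54 and 3.88 in MHCII-low. All arrays lay within a narrow band, and the change was -0.33 (-0.67 to 0.0, adjusted p = 0.260). Sparc, a collagen-binding protein of stroma, instead followed the collagens, with 1.73, 3.84, 4.41 and 3.36 and 3.36, 4.24, 4.57 and 4.66 (change -0.88, -2.15 to 0.40, adjusted p = 0.435). Postn, periostin, a product of activated fibroblasts, had -5.34, -1.32, -1.08 and -5.10 and -3.42, -0.90, -0.94 and -0.62 (change -1.74, -4.31 to 0.83, adjusted p = 0.441), with 2 of the 4 MHCII-high arrays above background. A second, dimmer Postn probe gave -0.62. Tnc, tenascin C, was at -0.17 (-0.81 to 0.47).

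Fn1, fibronectin, the adhesive glycoprotein on which cells assemble matrix, also varied little within groups, with an SD of 0.242 beside 0.153 for Spp1. Its brightest probe, which crosses an intron in the file's coordinates, is shown because 4 probes along the gene could be compared.
Fn1 (chr1:71637422-71639659, minus strand): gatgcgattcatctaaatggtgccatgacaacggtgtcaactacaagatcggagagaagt
By that probe the log2 signals were 5.69, 5.20, 5.44 and 5.60 in MHCII-high and 5.74, 5.68, 5.46 and 6.10 in MHCII-low. The groups overlapped, and the change was -0.26 (-0.68 to 0.16, adjusted p = 0.481). The 3 other probes gave -0.30, -0.33 and -0.60. By the last of these the groups did not overlap (limma adjusted p over all probes = 0.0738). It read 4.78, 4.80, 4.71 and 4.29 in MHCII-high and 5.17, 5.21, 5.38 and 5.20 in MHCII-low. Eln, elastin, ran from -3.15 to 0.36 in MHCII-high and -1.94 to -0.25 in MHCII-low (change -0.72, -2.37 to 0.93), and a second probe gave -1.56. Fbln1, which binds elastin and fibronectin, was at -0.27 (-1.04 to 0.51), and its other probes gave -0.67 and 0.36.

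**Figure D3:**
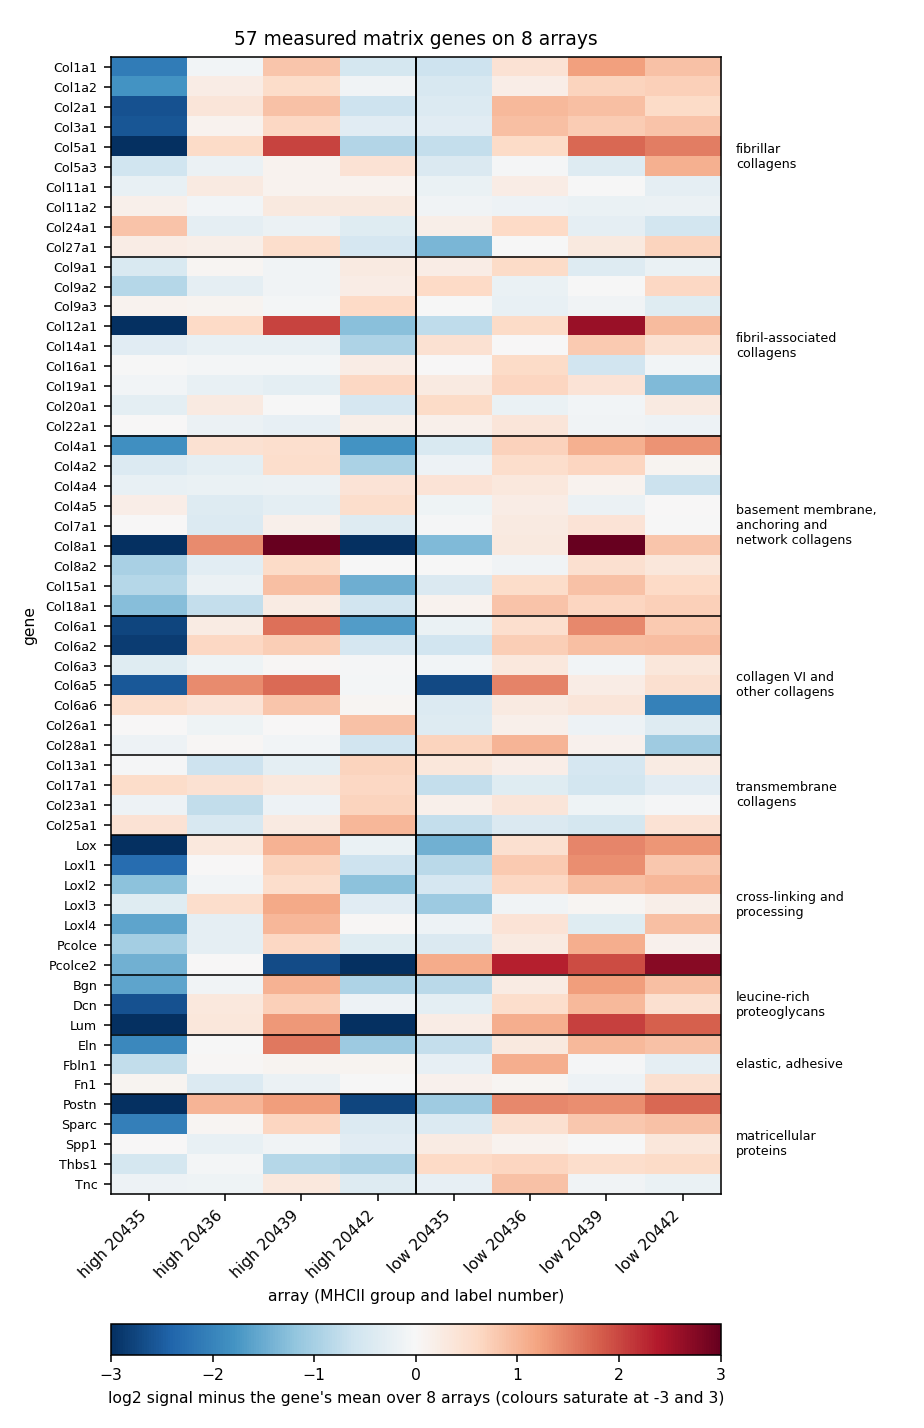
Log2 signal of the 57 measured matrix genes (rows, by role) on the 8 arrays (columns), minus each gene's mean over the 8 arrays, with colours saturated at -3 and 3. The MHCII-high array 20435 is lowest for most stromal collagens, Lox, Dcn, Lum, Postn and Sparc, while Fn1, Spp1 and Col17a1 vary little within a group.

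The spread within groups was itself a feature of these genes. The median SD within groups was 0.652 over the 57 and 0.321 over all genes tested. Of the 46 measured on all 8 arrays, where dim values play no part, 18 lay above the 90th percentile of such genes (39.1%), among them Col1a1, Col1a2, Col2a1, Col3a1, Col4a1, Col6a1, Col6a2, Dcn, Bgn, Sparc, Eln, Loxl1 and Pcolce. The 25 genes lowest on 20435 in both groups comprised 14 collagen chains, the proteoglycans Dcn, Lum and Bgn, Lox, Loxl1, Loxl2, Loxl3, Pcolce, Eln, Postn and Sparc. They were chosen for their low value there, and so by choice lay below the mean of the other arrays of the group by 0.31 to 5.42 in MHCII-high (median 2.30) and by 0.28 to 3.45 in MHCII-low (median 1.43). The MHCII-high array 20439 was the highest of its group for 34 of the 57 (59.6%, against 15.3% of all genes tested).

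Fibroblast and stellate cell markers were set beside this pattern. Of 18 listed, 17 were measured, Lrrc15 was well above background on 0 arrays, and 0 passed in limma in either direction, with a median change of -0.29. Their summed level, of which Acta2 made up 47.0% to 68.8% on each array, was 48.6 to 61.1 in MHCII-high and 49.9 to 67.3 in MHCII-low. On 20435, 8 of the 17 were lowest in MHCII-high (against 23.1% of all genes tested) and 6 in MHCII-low (against 17.5%), and 9 were highest on the MHCII-high array 20439. Des, Fbln2, Pdgfrb and Thy1, 4 of the 17, were lowest on 20435 in both groups, beside 5.67% of all genes. Fbln2 had -1.59, 0.36, 1.52 and -0.09 in MHCII-high and -0.53, 1.52, 1.78 and 1.57 in MHCII-low, and Pdgfrb, which marks fibroblasts and pericytes, -7.01, -2.90, -1.88 and -6.86 and -2.82, -2.63, -1.47 and -2.15. Acta2 did not follow, at 5.20, 4.92, 4.83 and 5.39 and 5.06, 5.37, 4.55 and 5.26, nor did Pdgfra, at -3.09, -2.98, -3.79 and -2.70 and -3.10, -2.38, -2.82 and -3.31. The part of fibroblast RNA in the collagen values was not tested.

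Markers of other cells were read by array as well. None of the acinar, epithelial, mesothelial or platelet markers were lowest on 20435 in both groups, while 2 of 8 endothelial markers were, Cldn5 and Tie1. Acinar cell markers, the digestive enzymes of the pancreas, were all 15 lowest on 20442 in MHCII-high and 13 of them highest on 20439, and in MHCII-low 10 were lowest on 20436 and 11 highest on 20439. Their summed level was 8.26 to 46.8 in MHCII-high and 21.6 to 40.8 in MHCII-low, and 0 passed in limma. Of 11 epithelial and tumour cell markers, 7 were lowest on 20442 and 7 highest on 20439 in MHCII-high. In MHCII-low, 6 of the 11 were lowest on 20442 and 6 highest on 20439. Of all genes tested, 25.6% were lowest on 20442 and 15.3% highest on 20439 in MHCII-high, and 29.8% and 19.3% in MHCII-low. Of 10 endothelial markers Tek and Emcn were well above background on 0 arrays and 8 were measured. Cldn5 at 1.75 was the 1 endothelial gene past the threshold (beside 4.93% of all genes tested). Their summed level was 2.02 to 2.75 and 2.38 to 3.04. Of 8 mesothelial markers 4 were measured, 0 passed, and the summed level was 1.98 to 8.71 in MHCII-high and 2.84 to 5.28 in MHCII-low. The part of these cells in the matrix values was not tested.

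**Figure D4:**
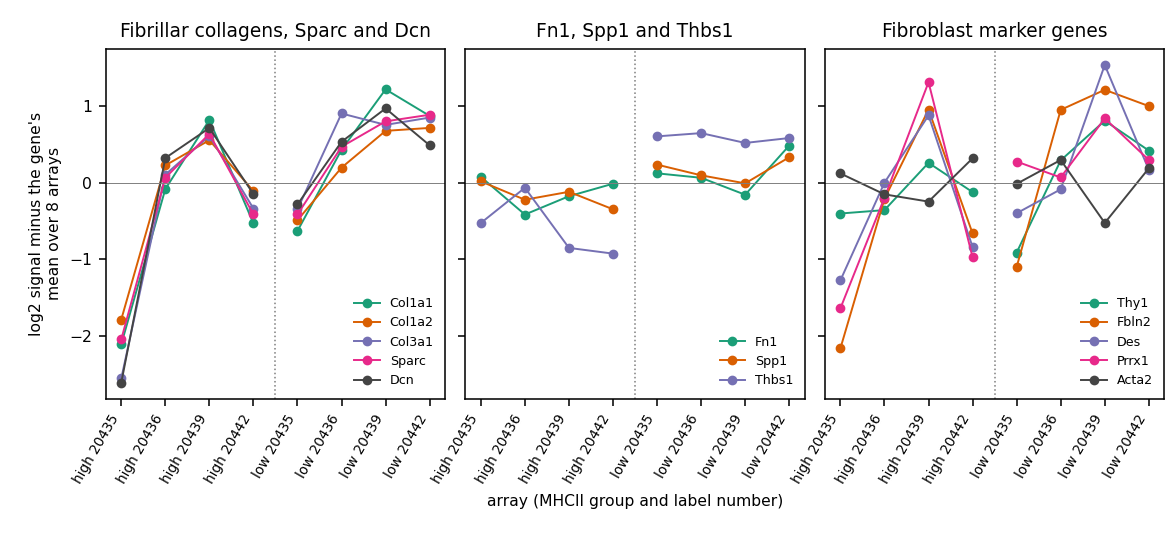
Log2 signal minus each gene's mean over the 8 arrays (y axis) for Col1a1, Col1a2, Col3a1, Sparc and Dcn (left), Fn1, Spp1 and Thbs1 (middle) and 5 fibroblast marker genes (right), by array (x axis). The left genes share a low value on the MHCII-high array 20435 that the middle genes lack. Of the 5 fibroblast markers drawn, Fbln2, Prrx1 and Des share it while Acta2 does not. Of all 17 measured fibroblast markers, 8 were lowest on that array in MHCII-high, and Dpt, Pdgfra, Tagln and Cdh11 were among those that were not.

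Several genes had more than 1 probe, which shows how far a value belongs to the gene. Of 130 matrix probes 96 passed the filter and 28 were well above background on 0 arrays. More than 1 probe was measured for 30 genes, and their changes had the same sign for 18 and lay within 0.5 of each other for 14. Agreement was close for Thbs1, Fn1 and Col1a1, whose 3 probes gave -0.94 to -1.18. Sparc had 2 probes at -0.88 and -0.79 and another at 0.27, and this last probe did not share the low value on 20435, at 0.28, 0.25, 0.60 and 0.20 in MHCII-high. A second Col1a2 probe likewise gave -0.15 and stayed between -2.08 and -1.71 in MHCII-high.

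**Figure D5:**
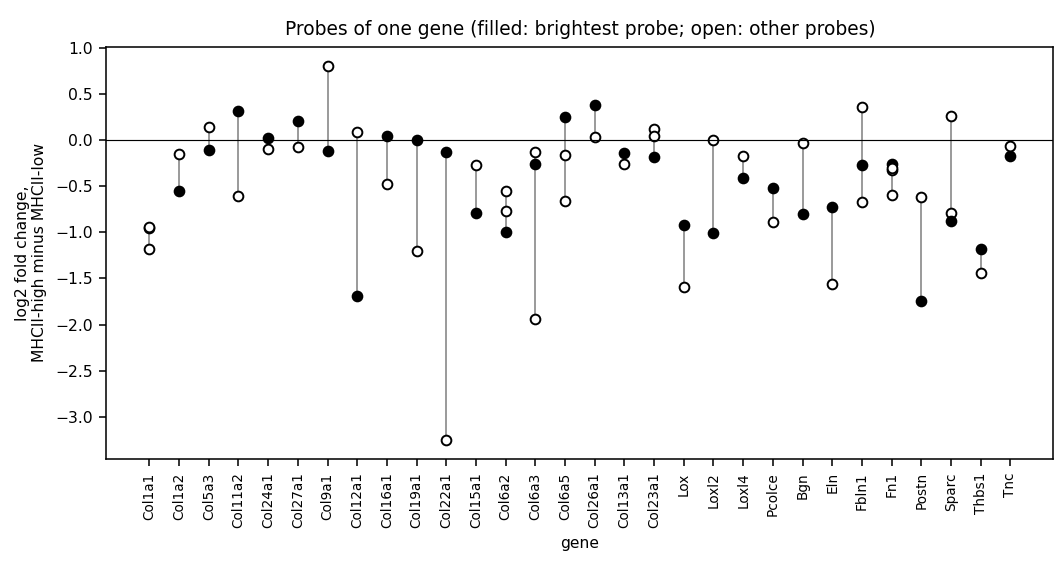
Log2 fold change (y axis, MHCII-high minus MHCII-low) of each measured probe of the 30 matrix genes with more than 1 (x axis), the brightest probe filled and the others open. Probes of Thbs1, Fn1 and Col1a1 lie close together, while those of Col22a1 (-0.13 and -3.25), Col6a3, Col12a1 and Sparc lie apart.

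The 6 genes below the filter were Col10a1, Col4a3, Col4a6 and Col5a2, with no probe well above background on any array, Col6a4, on 1 MHCII-low array, and Thbs2, on 1 MHCII-high and 2 MHCII-low arrays. They are not well above background, which says nothing of a level of 0. Col5a2, the usual partner of Col5a1 in type V collagen, had 2 probes and Thbs2, the closest relative of Thbs1, had 1. Of the 57 measured genes, 11 were well above background on 4 to 7 arrays, and no gene was so in 1 group alone.

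Genes that build and read the matrix were described from lists. Among 28 genes of collagen biosynthesis, 6 were higher in MHCII-low and 0 in MHCII-high, beside 2.3% of all genes tested in that direction. They included P4ha2, P4ha3 and P4hb, subunits of prolyl 4-hydroxylase, which stabilises the triple helix, and the lysyl hydroxylases Plod1 and Plod3. The last of them was Crtap, a member of the complex that modifies a proline of type I collagen. P4ha2 had -0.26, -0.15, -0.36 and -0.84 in MHCII-high and 1.03, 0.76, 1.1 and 0.95 in MHCII-low (change -1.36, -1.78 to -0.95, limma adjusted p = 0.00665), and Crtap and Plod1 fell by 1.33 and 1.35. No type I or III chain passed, and whether enzymes and chains differed in their change was not tested. Serpinh1, the collagen chaperone, was at -0.04 (-0.83 to 0.74). P4ha2 kept its call under the row block and whichever array was omitted, Crtap in the latter (row block 0.0524), while P4ha3 and P4hb lost it in 7 of those 8 fits (adjusted p up to 0.0836 and 0.101). Plod1 lost it without the MHCII-high array 20439 or the MHCII-low array 20435 or 20439 (up to 0.0622), and Plod3 without the first or second of these (up to 0.0630).

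The counts that follow stand beside 2.3% of all genes tested higher in MHCII-low and 2.63% higher in MHCII-high. Of 13 laminins and other basement membrane proteins, 2 were higher in MHCII-low. They were Nid2, a nidogen that bridges laminin and collagen IV, and Lamc1, the common laminin gamma chain. Nid2 had -3.32, -3.23, -2.75 and -3.15 in MHCII-high and -1.29, -1.36, -1.57 and -1.42 in MHCII-low (change -1.70, -2.08 to -1.33, limma adjusted p = 0.00192), and Lamc1 fell by 1.49 (adjusted p = 0.00814). Both calls held under the row block (0.0124 and 0.0404) and whichever array was omitted. Of 26 matrix receptors 3 were higher in MHCII-low, the integrin chains Itga6 (-1.10) and Itga9 (-1.04) and the syndecan Sdc3 (-0.92), and 1 in MHCII-high, Ddr1 (3.81). Itga6, which pairs into laminin receptors, kept its call under the row block (0.0364) and whichever array was omitted, and the other three lost it under that block and in 3 to 7 of the 8 fits that omit an array. Among the proteases and inhibitors, Serpinb2 and Timp2 fell by 3.66 and 0.80, and the collagenase Mmp13 rose by 1.04. Of 23 small leucine-rich and other matrix glycoproteins Emilin1 fell by 1.20. Among genes of the TGF-beta pathway, the main inducer of collagen transcription in fibroblasts, Tgfb3, Eng and Thbs1 were higher in MHCII-low and 0 were higher in MHCII-high, while Tgfb1 was at 0.30 (-0.18 to 0.79). Mmp13, Timp2, Emilin1, Tgfb3 and Eng lost their calls under the row block (0.105 to 0.165) and in 4 to 8 of the 8 fits that omit an array (with adjusted p up to 0.117), while Serpinb2 kept its call in all of these.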

How the data were processed

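The deposited scanner files hold 1-colour (Cy5) intensity values from Agilent Feature Extraction 11.5.1.1, on a linear scale, background-subtracted and detrended within each array per the file headers. Amplification used the Sigma WTA2 kit, per the labels' protocols. A single slide, scanned once, carried the 8 arrays in 2 rows. The deposited series table holds log2 values, whose making is not stated in the sources used here; each column correlated at 0.998 to 0.9998 with the log2 processed signal of its array.

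Control spots and outlier spots (67 to 160 per array) were left out, spots of a probe averaged, and log2 processed signals set against the 75th percentile of each array's probes. Each array had 38755 to 42086 of its 56605 probes well above background, and precision is limited by how many arrays there are. The brightest probe represented a gene. Names came from the files and the RefSeq table of GRCm38.p6. The comparison was fitted in limma 3.58.1 (lmFit, eBayes; R 4.3.3), two-sided, without covariates, and Benjamini-Hochberg adjusted over 27963 genes at 0.05. The fit was tested on simulated data. Intervals are 95% intervals from the moderated standard error. Summed levels of marker lists are sums of linear signals relative to the 75th percentile.

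Named are all genes past the threshold, with groups that do not overlap or with a log2 change of 1 or more in size, and examples of each role. A result in the protease and TGF-beta lists is not reported here. Members, lists and tests were chosen with earlier results of these data known.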

Additional observations from a re-analysis of the deposited data

Results flagged for a closer look

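Among the 57 matrix genes in 2 groups each, 114 groups of 4 arrays were checked, and in 9 of them 1 array lay far from the nearest other by Dixon's test, where chance gives about 1 in 20. For 3 genes this was the MHCII-low array 20435 on the low side. Col3a1 was at 3.30 there with the nearest array at 4.40, Col6a2 at 0.16 with the nearest at 1.48, and Postn at -3.42 with the nearest at -0.94. The MHCII-high array 20435 was the far one for Fbln1, low at -2.23, and for Col24a1, high at -1.29 with the nearest at -2.33. The MHCII-high array 20442 was low for Col14a1, at -2.42 with the nearest at -1.83. It was high for Col26a1, at -0.0511 with the nearest at -0.90, and for Col4a4, at -2.20 with the nearest at -2.77. Tnc was high on the MHCII-low array 20436, at 0.27 with the nearest at -0.70. Col14a1 is the gene of these whose groups did not overlap, and without the MHCII-high array 20442 its change was -0.70 (limma adjusted p = 0.127).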

How the results depend on the processing

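Of all genes 1379 passed the threshold, 817 with the label number as a replicate block, 460 with a block for the slide row, and 549 to 1164 with 1 array or number left out. Of the matrix genes 3 passed, 2 with the replicate block (Col17a1 and Thbs1), 0 with the row block, and 0 to 3 with arrays left out, 0 being the fit without number 20435. Each count with normexp, quantile or median scaling, the authors' table, no filter, or probes averaged was 3. Same-numbered samples deviated together at r of 0.189, 0.128, 0.210 and 0.0829 across genes. Samples of unlike number reached at most 0.0760, and every sample correlated best with its own number. What the numbers mark is not stated, and the main fit did not pair the samples. The replicate block is therefore given as an alternative. Under that block Pcolce2 stayed at -4.06 (adjusted p = 0.0619). The fold change of Col11a2 reversed to -0.14 with its probes averaged, where a dim second probe enters. Over the 23 genes named by the rule, 393 values kept direction and side of the threshold, 12 lost and 2 gained a call, and 1 reversed. Of the 34 other measured genes, none called, 15 changed sign under at least 1 alternative, all with changes of at most 0.41 in size. Dim probes limit Lum, Postn, Col5a1, Col8a1, Col12a1 and Pcolce2, whose low values sit near background.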

Other observations

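Ddr1, a receptor tyrosine kinase activated by collagen, had the largest change among the 26 measured matrix receptors. Its log2 signals were -0.20, -0.94, -0.25 and -0.15 in MHCII-high and -7.28, -2.94, -3.10 and -3.46 in MHCII-low, with 3 of the 4 MHCII-low arrays well above background. The change was 3.81 (1.78 to 5.84, limma adjusted p = 0.0487), 2.14 with normexp background correction, and 7 of the 8 fits that omit an array lost the call (largest adjusted p 0.121).

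Col22a1, a collagen of tissue junctions, gave unlike values by its 2 probes. The brightest, whose glycine codons are printed above, was at 1.42, 1.23, 1.16 and 1.58 in MHCII-high and 1.56, 1.76, 1.30 and 1.26 in MHCII-low. The second was at -4.39, -3.58, -7.11 and -6.94 in MHCII-high, where 2 arrays were well above background, and at -2.40, -1.99, -3.17 and -1.44 in MHCII-low, where all 4 were. Its groups did not overlap, with a change of -3.25 (limma adjusted p over all probes = 0.0613), and which probe reads the transcript was not tested.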
